A study of Mus musculus with 16 samples.

Results

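The genes described here are Tnf, its receptors Tnfrsf1a and Tnfrsf1b, and the genes of proteins that bind to or act beneath those receptors, namely Traf1, Traf2, Birc2, Birc3, Ripk1, Ripk3 and Cflar. They were taken by symbol and make up 10 of the 54532 genes measured in pulmonary endothelial cells (ECs) of mice. In the first experiment, male wild-type (WT) C57/BL6J mice of 8 weeks received saline (n = 4) or 10 mg/kg lipopolysaccharide, LPS (n = 6), into the trachea. In the second, Fgfr1 loxP/loxP mice (n = 3) and their littermates of the genotype Fgfr1 iΔEC/iΔEC (n = 3) all received 2 mg/kg LPS by the same route, a dose chosen by the study so that the animals survived. The iΔEC/iΔEC mice carry the same floxed Fgfr1 alleles plus VE-cadherin-CreERT2, a recombinase driven by an endothelial promoter and switched on by tamoxifen. Both genotypes were given tamoxifen into the peritoneum before LPS, and no saline group of either genotype is among the samples. RNA was collected 24 h after the injection from the cells left after CD45+ cells had been removed with magnetic beads and CD31+ cells captured. The values are FPKM, fragments per kilobase of gene, so that levels of different genes can be set side by side. The libraries were deposited already scaled by a size factor and not by their total reads, and the members whose call in the first experiment changes on total reads are given with that value. Neither the labels nor the study's methods say whether a library stands for a single mouse, so the p-values measure the spread between these libraries.

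TNF is a cytokine made mainly by macrophages and other leukocytes in response to bacterial products, and it makes endothelium adhesive and leaky. TNFR1, the product of Tnfrsf1a, is found on most cells and carries a death domain, whereas TNFR2, the product of Tnfrsf1b, lacks that domain and is restricted to leukocytes, endothelium and a few other cells. Engaged TNFR1 gathers the kinase RIPK1, the adaptor TRAF2 and the ubiquitin ligases cIAP1 and cIAP2 (Birc2 and Birc3) into a complex that activates NF-κB. If that complex fails, RIPK1 can pair with caspase-8 or with RIPK3 and kill the cell, a step that the Cflar product cFLIP restrains.

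The libraries held 13478726 to 18807007 reads on genes in the saline group, 17840221 to 19043015 in the LPS group, 15969575 to 17002788 in loxP/loxP mice and 16642177 to 16943522 in iΔEC/iΔEC mice. In saline libraries the rarest member, Tnf, still rested on 11 to 17 reads, above the floor of 3 reads. The endothelial label was checked with 10 marker genes. None of them was at 0 in any group, and Pecam1, the gene of CD31, stood at 339 to 516 FPKM in saline and 234 to 444 FPKM in LPS libraries. Markers of leukocytes were also read. The sum of 6 leukocyte markers was 101 to 342 FPKM in saline and 964 to 2379 FPKM in LPS libraries, with Tyrobp as the most abundant gene. The sum of 8 monocyte and macrophage markers was 22.1 to 38.2 FPKM and 356 to 812 FPKM, led by Csf1r, and that of 8 neutrophil markers was 69.9 to 1377 FPKM and 1279 to 6605 FPKM, led by S100a9. Of these lists, 6 of 6, 7 of 8 and 6 of 8 genes passed the test as higher in LPS, whereas 6 of 10 endothelial markers passed as lower. Over all genes, 29.5% passed as higher and 23.7% as lower. None of these markers was at 0 in a group. In such bulk RNA, fewer cells of a type and less RNA per cell cannot be told apart.

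Saline 1, saline 3 and, in the number of genes detected, saline 4 stood apart within the saline group. Saline 1 had the fewest reads, the highest leukocyte sum of its group (342 against 101 to 152 FPKM) and a neutrophil sum of 1377 FPKM against 69.9 to 303 FPKM. Saline 3 had the fewest detected genes of its group (20258) and a lymphocyte sum of 24.0 FPKM against 104 to 134 FPKM. Saline 4 had the most detected genes of all 16 libraries (29713, against 20258 to 23292 in saline 1 to 3) at 16731305 reads, and it is 1 of the 2 saline libraries that remain when saline 1 and saline 3 are left out. Where leaving out saline 1 and saline 3 changed a call among the genes named, or moved a member by more than 1.5 times, the value without them is given.

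**Figure D1:**
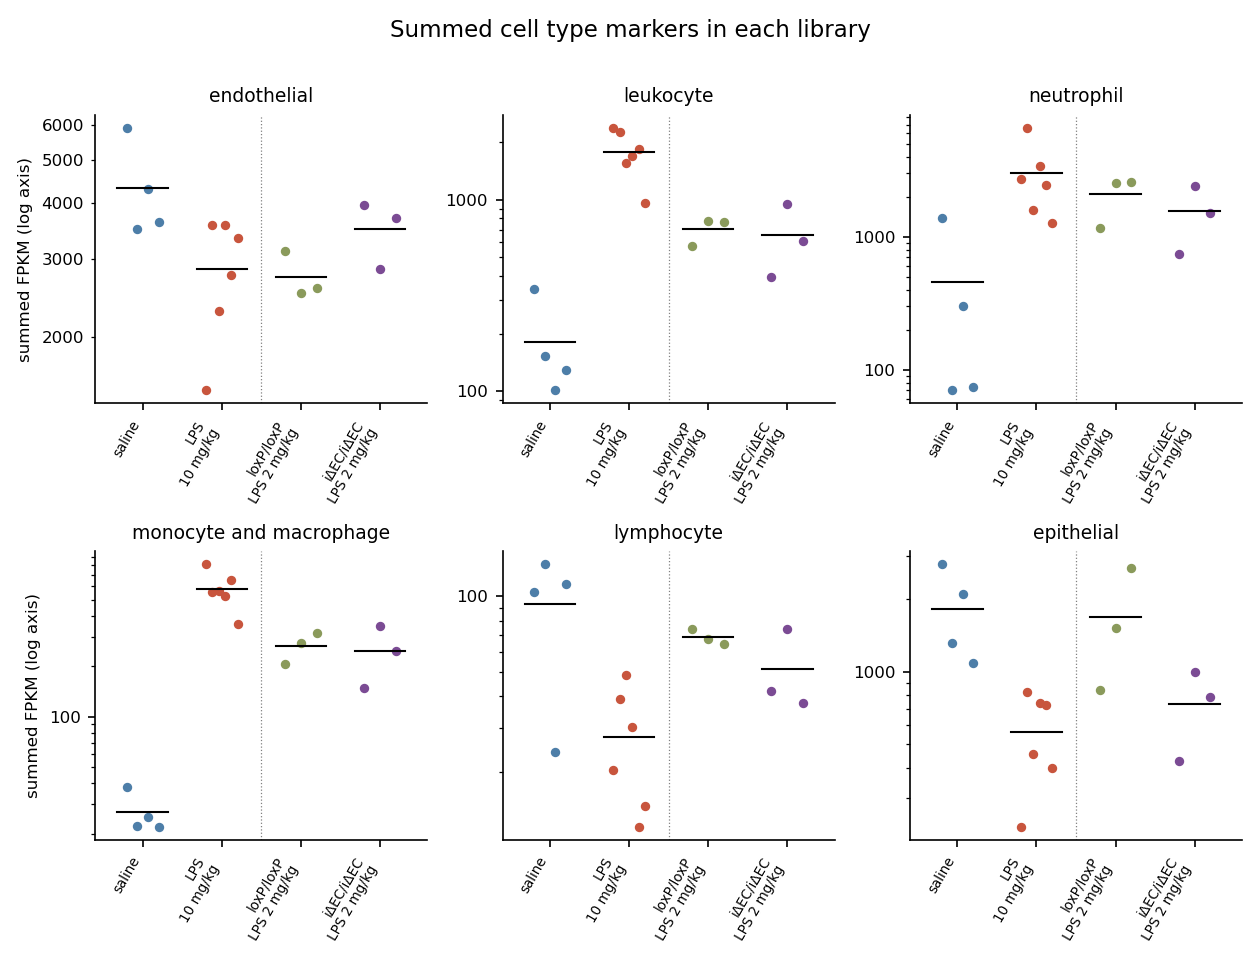
Summed FPKM of the marker genes of 6 cell types (log axes) in each of the 16 libraries, with a point per library, a bar at the group mean and a dotted line between the experiments, which were normalised separately. The leukocyte sums of the LPS libraries (964 to 2379 FPKM) lie above those of the saline libraries (101 to 342 FPKM), and the groups of the second experiment overlap in all 6 lists.

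To learn how LPS changed the TNF axis in the EC fraction, the LPS and saline groups were compared with limma on log2(FPKM + 1). All 10 genes passed the filter of 0.5 FPKM on average, and 8 of them were higher in LPS at an adjusted p at or under 0.05. Of all 14893 genes tested, 29.5% were called higher and 23.7% lower. None of the 10 was called lower. With a further limit of a log2 fold change of at least 1, 5 of the 10 were called, against 11.9% of all genes. The saline and LPS libraries did not overlap for 8 members, all higher in LPS, against 22.7% of all genes. The median log2 fold change of the members was 1.18 and that of all genes 0.01.

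Tnf itself moved from the least abundant of the 10 genes to one of the more abundant. It measured 0.738, 0.469, 0.444 and 0.341 FPKM in saline 1 to 4, and between 25.3 and 89.2 FPKM in the LPS libraries, with a median of 47.6 FPKM. Every LPS library lay far above every saline library. The ratio of the group means was 112, and the log2 fold change was 5.11 (SE 0.31, limma adjusted p = 9.91e-07), smaller than the ratio because the added 1 weighs on low values. The ratio of Tnf to Ptprc, the gene of CD45, within the same library was 0.0575 to 0.126 in saline and 1.15 to 3.07 in LPS. Its ratio to the summed monocyte and macrophage markers was 0.0154 to 0.0211 in saline and 0.0574 to 0.157 in LPS. The groups did not overlap in either ratio, which are given as values with no test. Which cells of the fraction carried the transcript was not tested.

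The Tnf gene lies at chr17:35199381-35202007 on the minus strand of GRCm38. The part of its mRNA after the stop codon holds an AU-rich element, the site at which decay factors such as tristetraprolin (Zfp36) bind. The core of that element is shown because genes of proteins that act on this mRNA are described among the lists. It was read from the GENCODE M21 transcript at chr17:35199680-35199708, minus strand, with the bases covered by 4 overlapping copies of the nonamer TTATTTATT in capitals.
Tnf AU-rich core: aTTATTTATTATTTATTTATTATTTATTt
The 764 bases after the Tnf stop codon hold 5 copies of the nonamer on the transcribed strand. Of 21004 protein-coding genes, 7.67% hold at least 1 copy in their longest 3′ untranslated region, and 42 hold at least 5, Tnf included. Birc3 (3 copies), Ripk1 (2 copies) and Cflar (2 copies) also hold it, so 4 of the 10 members do. A match is a description of the letters and not a measured site.

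Both strands of the members' promoters, 250 bases before to 50 after each RefSeq start on GRCm38.p6, were searched for the NF-κB decamer consensus. All 10 members matched the table, with 12 windows. None of the members holds an exact match, and 6.55% of all 27025 genes do. Tnf holds 3 matches that are 1 letter from the consensus, and the upstream stretch with 2 of them, in capitals, is chr17:35202182-35202229 on the minus strand, 222 to 175 bases before the start.
Tnf promoter stretch: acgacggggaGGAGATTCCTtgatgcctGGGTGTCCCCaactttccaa
Of all genes, 54.7% hold a match at 1 or 0 mismatches, and 4 of the 10 members (Tnf, Traf2, Ripk1 and Cflar) do. Tnfrsf1b, Traf1, Birc3 and Ripk3, which rose, hold none in this window, and neither does Tnfrsf1a, whose call as higher was fragile. That says only that these letters are not there.

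The TNF receptors differed in level at rest and in response. Tnfrsf1a was the most abundant of the 10 genes in the saline libraries, at 126, 117, 142 and 125 FPKM in saline 1 to 4. In LPS it ranged from 143 to 202 FPKM with a median of 164 FPKM. The groups lay side by side with no gap to speak of, the highest saline library at 142 FPKM and the lowest LPS library at 143 FPKM. The log2 fold change was 0.38 (SE 0.14, limma adjusted p = 0.0368). This call was fragile. Without saline 1 it was 0.37 (adjusted p = 0.052), without saline 1 and saline 3 it was 0.45 (adjusted p = 0.0606), and after quantile normalisation the sign turned, at -0.29 (adjusted p = 0.0634). Scaled on total reads it was 0.18 and did not pass (adjusted p = 0.215). Scaled on the endothelial markers it was larger, at 1.20 (adjusted p = 0.000495).

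Tnfrsf1b measured 13.2, 6.79, 6.16 and 5.64 FPKM in saline 1 to 4. In LPS it measured 136 to 314 FPKM, with a median of 190 FPKM. All LPS libraries lay far above the highest saline library, saline 1. The ratio of the means was 25.3 and the log2 fold change 4.52 (SE 0.26, limma adjusted p = 7.05e-07). The LPS libraries thus held about as much of the one receptor transcript as of the other. The FPKM ratio of Tnfrsf1b to Tnfrsf1a was 0.0434 to 0.104 in saline libraries and 0.89 to 2.1 in LPS libraries, with medians of 0.0516 and 1.01.

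Markers of myeloid cells moved with Tnfrsf1b. Its ratio to Ptprc was 0.913 to 1.74 in saline and 4.77 to 7.22 in LPS libraries, with no overlap. Its ratio to the summed monocyte and macrophage markers was 0.243 to 0.346 in saline and 0.269 to 0.387 in LPS libraries, which overlap. Csf1r, the receptor that macrophages need to survive, rose from 7.13 to 211 FPKM. Over the 10 libraries the protein-coding genes closest to Tnfrsf1b by Pearson correlation of log2(FPKM + 1), among 12116 compared, were Cd68 (r = 0.998), Pilrb2 (0.998) and F10 (0.997). Cd68, a lysosomal protein of macrophages, is itself a marker in the list. The closest to Tnf were Clec4n, Csf3 and Gpr84 (0.997 each), and those closest to Tnfrsf1a were Commd1 (0.993), Gemin7 (0.992) and Znrd1 (0.991). The libraries share their 2 groups, so each r includes the difference between saline and LPS, and correlations within the groups were not computed. The part of the myeloid markers in the rise of Tnfrsf1b was not tested.

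**Figure D2:**
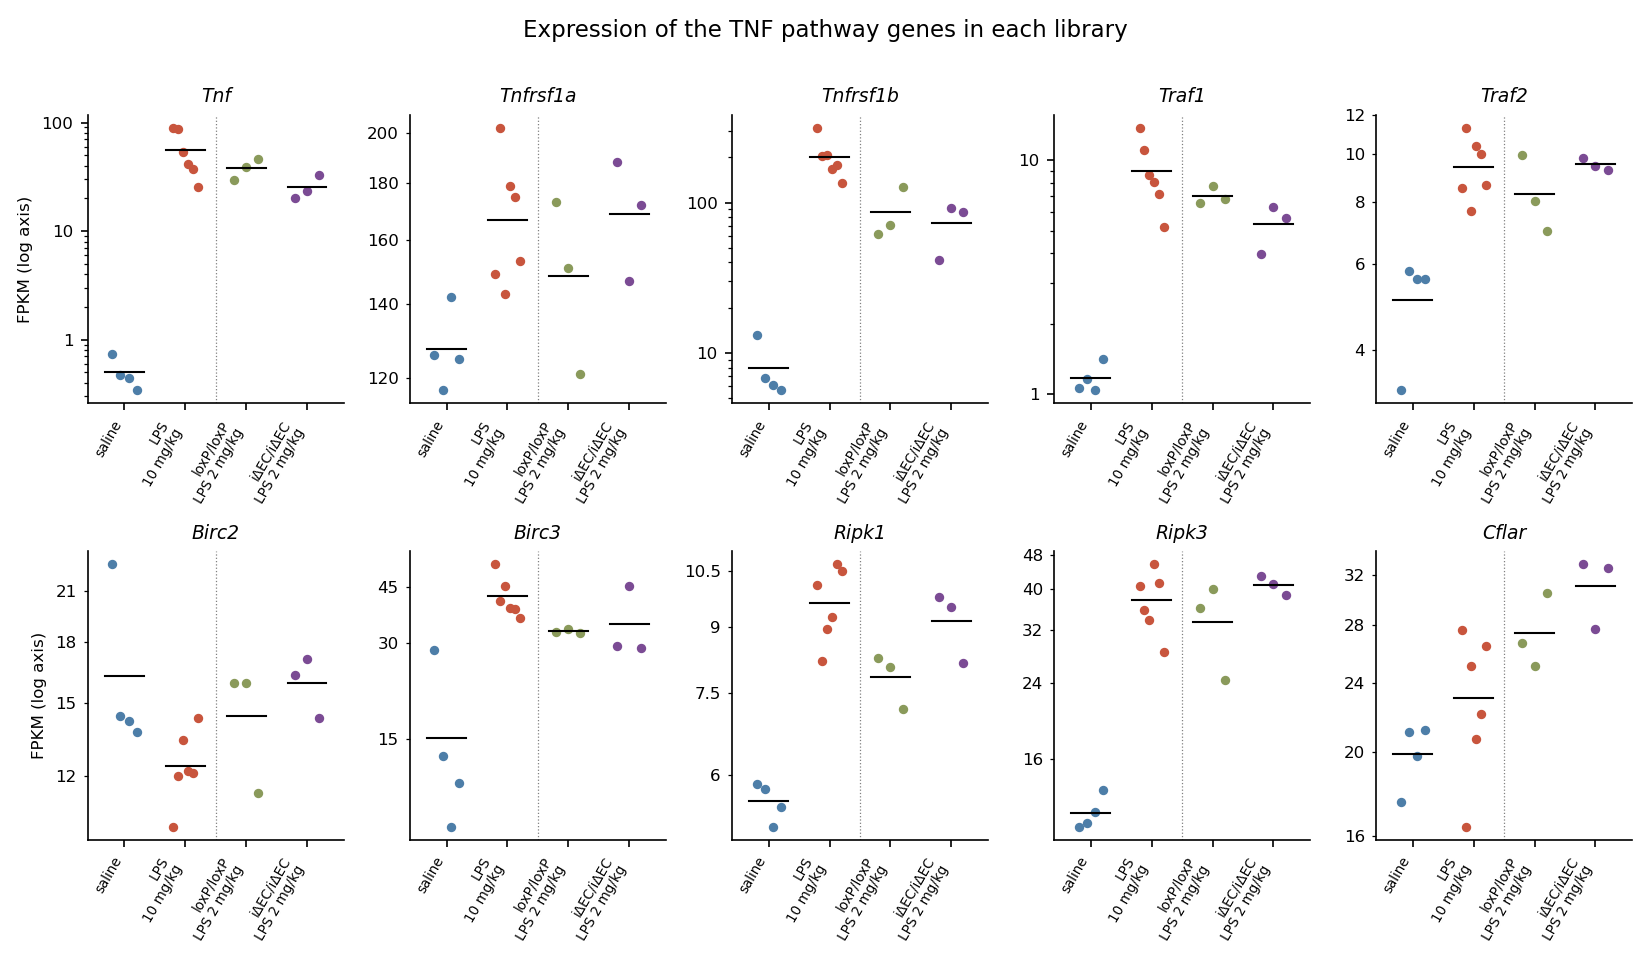
FPKM of the 10 genes (log axes) in each of the 16 libraries, with a point per library, a bar at the group mean and a dotted line between the experiments, which were normalised separately. Tnf lies at 0.341 to 0.738 FPKM in saline and at 20.0 FPKM or more in every library that received LPS, whereas Cflar and Birc2 overlap between saline and LPS.

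Of the adaptors, Traf1, an inducible family member without a RING domain, rose more than Traf2, the constitutive one. Traf1 measured 1.06, 1.16, 1.04 and 1.42 FPKM in saline 1 to 4 and 5.16 to 13.7 FPKM in LPS, with a median of 8.36 FPKM. Its log2 fold change was 2.15 (SE 0.21, limma adjusted p = 1.61e-05), with no overlap of the groups. The 6 LPS libraries stood in the same order for Traf1 as for Tnf, with LPS 1 highest and LPS 6 lowest. The same libraries held the highest (2379 FPKM) and lowest (964 FPKM) leukocyte sums. The ratio of Traf1 to Ptprc was 0.0967 to 0.295 in saline and 0.199 to 0.389 in LPS libraries, which overlap. Over the summed monocyte and macrophage markers, Traf1 was 0.0277 to 0.0643 in saline and 0.0109 to 0.0199 in LPS libraries, lower with no overlap. The part of the leukocyte markers in the rise of Traf1 was not tested.

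Traf2 measured 3.32, 5.79, 5.59 and 5.57 FPKM in saline 1 to 4, with saline 1 low. In LPS it measured 7.68 to 11.3 FPKM with a median of 9.34 FPKM, above all saline libraries. The log2 fold change was 0.80 (SE 0.15, limma adjusted p = 0.00139). The FPKM ratio of Traf1 to Traf2 went from 0.186 to 0.32 in saline to 0.597 to 1.61 in LPS libraries.

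The IAP genes, neighbours on chromosome 9 (Birc2 at chr9:7818227-7837064 and Birc3 at chr9:7848699-7873186, both on the minus strand), differed in what passed the test. Birc3 measured 28.5, 13.2, 7.93 and 10.9 FPKM in saline 1 to 4 and 36.0 to 53.1 FPKM in LPS libraries, with a median of 39.7 FPKM. Saline 1 was well above the other saline libraries and still below every LPS library. The log2 fold change was 1.56 (SE 0.27, limma adjusted p = 0.000757). Birc2 measured 22.8, 14.4, 14.2 and 13.7 FPKM in saline 1 to 4 and 10.3 to 14.3 FPKM in LPS libraries, with a median of 12.2 FPKM. The groups overlapped, and the log2 fold change was -0.34 (SE 0.15, limma adjusted p = 0.0714). Without saline 1 it was -0.18 (adjusted p = 0.175), and without saline 1 and saline 3 it was -0.17 (adjusted p = 0.298). The call also depended on the scaling, since Birc2 passed as lower after quantile normalisation (-0.59, adjusted p = 0.00454) and on total reads (-0.53, adjusted p = 0.00674), and was 0.43 on the endothelial scale (adjusted p = 0.0976). The FPKM ratio of Birc3 to Birc2 was 0.558 to 1.25 in saline and 2.52 to 5.14 in LPS libraries. The ratio of Birc3 to the leukocyte gene Ptprc was lower in LPS, at 1.78 to 2.6 in saline and 1.01 to 1.63 in LPS libraries. Its ratio to the summed monocyte and macrophage markers was also lower, at 0.312 to 0.746 and 0.0586 to 0.101.

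Of the kinases, Ripk3, which drives necroptosis, rose more than Ripk1. Ripk3 measured 11.1, 11.3, 12.0 and 13.5 FPKM in saline 1 to 4 and 28.5 to 45.6 FPKM in LPS libraries, with a median of 38.0 FPKM. The saline libraries lay close together and all below the LPS libraries, and the log2 fold change was 1.56 (SE 0.14, limma adjusted p = 7.67e-06). Ripk1 measured 5.85, 5.76, 5.20 and 5.49 FPKM in saline 1 to 4 and 8.20 to 10.7 FPKM in LPS libraries, with a median of 9.67 FPKM and no overlap. Its log2 fold change was 0.69 (SE 0.10, limma adjusted p = 0.000223). Exons of Gm17084 and Serpinb6a overlap 752 of the 8344 exonic bases of Ripk1, and without stated strandedness those reads cannot be told apart. The FPKM ratio of Ripk3 to Ripk1 was 1.9 to 2.46 in saline and 2.71 to 4.93 in LPS libraries. Relative to Pecam1 of the same library, Ripk3 was 0.0215 to 0.0399 in saline and 0.0664 to 0.173 in LPS, and relative to Ptprc it was 1.01 to 3.4 and 0.769 to 1.62. The groups were apart in the ratio to the endothelial gene and overlapped in the ratio to the leukocyte gene. Over the summed monocyte and macrophage markers, Ripk3 was 0.291 to 0.611 in saline and 0.0499 to 0.0864 in LPS libraries, lower with no overlap.

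Cflar, the brake on caspase-8, measured 17.5, 21.1, 19.8 and 21.2 FPKM in saline 1 to 4 and 16.4 to 27.6 FPKM in LPS libraries, with a median of 23.6 FPKM. The groups overlapped, LPS 2 lying below all saline libraries. Its log2 fold change of 0.19 (SE 0.15, limma adjusted p = 0.294) has a 95% confidence interval of -0.13 to 0.51. Without saline 1 and saline 3 it was 0.10 (adjusted p = 0.679). It passed as higher on the endothelial scale (0.97, adjusted p = 0.0105) and was -0.16 after quantile normalisation and -0.01 on total reads, neither of which passed.

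**Figure D3:**
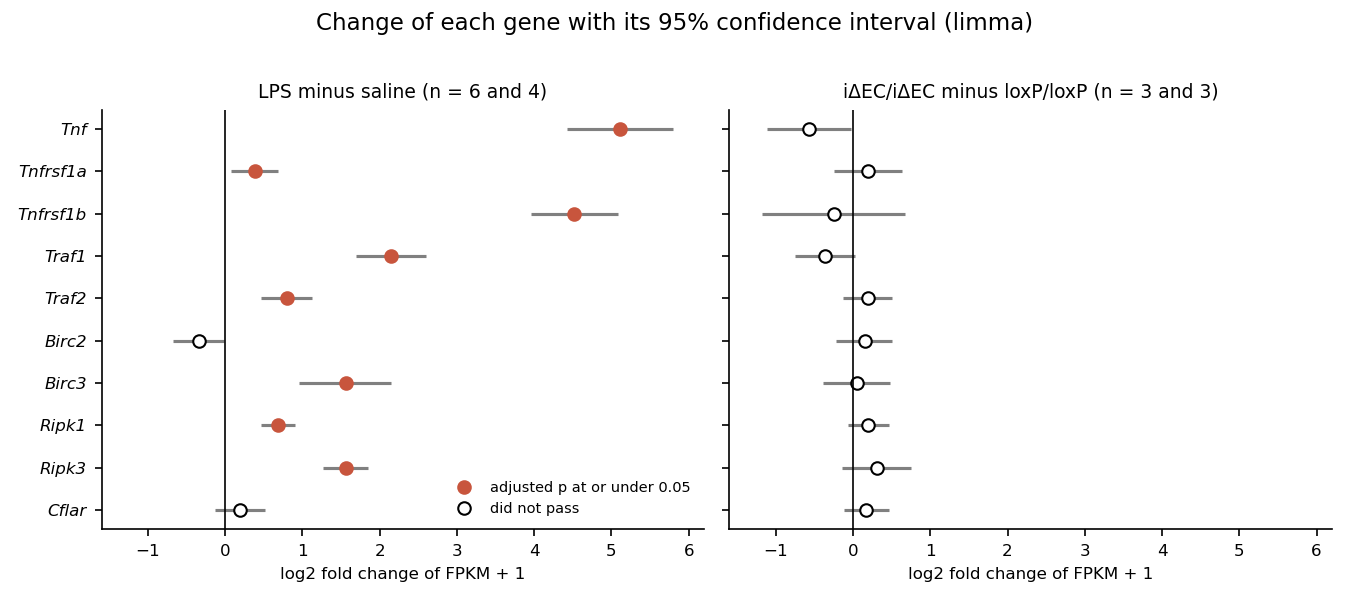
Log2 fold change of FPKM + 1 with its 95% confidence interval from limma for each gene, LPS against saline on the left and iΔEC/iΔEC against loxP/loxP on the right, on the same axis. Filled points passed an adjusted p of 0.05, which 8 of 10 genes did on the left and 0 of 10 on the right.

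The order of the levels changed accordingly. In saline libraries the group means ran from Tnfrsf1a (128 FPKM) through Cflar (19.9 FPKM), Birc2 (16.3 FPKM), Birc3 (15.1 FPKM), Ripk3 (12.0 FPKM), Tnfrsf1b (7.95 FPKM), Ripk1 (5.57 FPKM), Traf2 (5.07 FPKM) and Traf1 (1.17 FPKM) to Tnf (0.498 FPKM). From Cflar down to Traf2 the ranges of each pair of neighbours overlapped, and Tnfrsf1a, Traf1 and Tnf stood clear of theirs. In LPS libraries the order was Tnfrsf1b (201 FPKM), Tnfrsf1a (167 FPKM), Tnf (55.7 FPKM), Birc3 (42.1 FPKM), Ripk3 (37.6 FPKM), Cflar (23.1 FPKM), Birc2 (12.4 FPKM), Ripk1 (9.61 FPKM), Traf2 (9.43 FPKM) and Traf1 (8.97 FPKM). These orders are those of the captured fraction, which held leukocyte markers, and not of ECs alone. There the ranges of the receptors overlapped, as did those of Tnf, Birc3 and Ripk3 and those of Birc2, Ripk1, Traf2 and Traf1, and Cflar stood clear of both its neighbours. Within the LPS group the spread differed by gene. Tnf varied most, with an SD of 47.7% of the mean, followed by Traf1 (33.6%) and Tnfrsf1b (30.4%), and Ripk1 (10.1%) and Birc2 (10.9%) varied least.

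**Figure D4:**
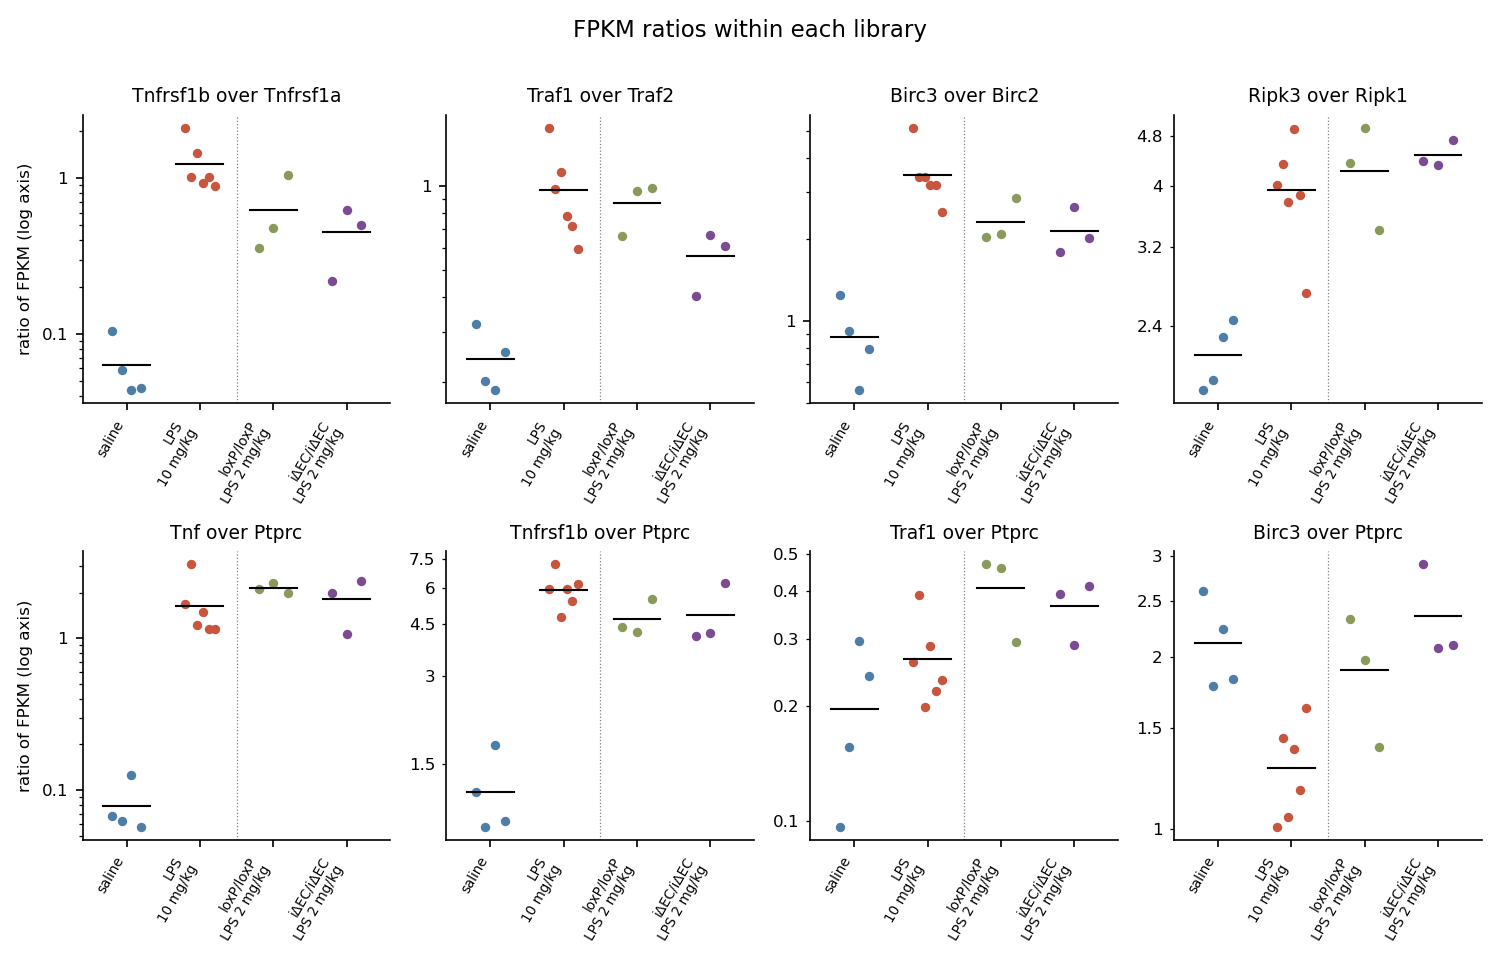
Ratios of FPKM within each library (log axes), with related genes in the upper row and genes over Ptprc, the gene of CD45, in the lower row, where points are the 16 libraries, bars are group means and the dotted line parts the experiments. Tnf over Ptprc lies at 0.0575 to 0.126 in saline and 1.15 to 3.07 in LPS, whereas Traf1 over Ptprc overlaps between those groups.

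The genes around the members were described with 8 lists of 101 genes. Of the 89 tested in the first experiment, 41 were higher in LPS, 15 were lower and 33 did not pass, where 29.5% of all genes were called higher and 23.7% lower. When the libraries were scaled on the endothelial markers, 63 of the 89 were higher and 2 lower, so the number of fallers depends on the scaling. Leaving out saline 1 and saline 3 gave 41 higher and 12 lower.

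Among 17 other ligands of the TNF family, only 8 reached the level to be tested, with a median log2 fold change of 0.06. Of those 8, 2 rose, where 29.5% of all genes were called higher. Scaled on the endothelial markers, 5 of the 8 were higher, where 7819 of all 15023 genes were. Ltb was among these ligands (1.38, adjusted p = 0.0299) but did not pass in the main comparison (0.60, adjusted p = 0.274). Without saline 1 and saline 3 the value of Ltb was -0.06 (adjusted p = 0.911). Tnfsf9, the ligand of 4-1BB, rose from 0.434 to 2.24 FPKM (log2 fold change 1.24, SE 0.22, limma adjusted p = 0.000759). The other riser was Tnfsf14, also called LIGHT, from 1.20 to 3.55 FPKM (1.22, adjusted p = 0.0161). Tnfsf10, which encodes TRAIL, was the most abundant ligand of the list at 78.8 FPKM in saline and 42.7 FPKM in LPS, a difference that did not pass (log2 fold change -0.65, adjusted p = 0.211). Without saline 1 and saline 3 it did pass (-1.19, adjusted p = 0.00386).

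Of 20 other receptors tested, 7 were higher and 7 lower, where 29.5% of all genes were called higher and 23.7% lower. On the endothelial scale 10 were higher and 2 lower, where 7819 of all 15023 genes were higher and 634 lower. After quantile normalisation the receptor counts were 7 and 5, where 3645 of all 14893 genes were higher and 4174 lower. Relt rose from 2.22 to 37.7 FPKM (log2 fold change 3.64, SE 0.32, limma adjusted p = 7.58e-06). Tnfrsf8, which encodes CD30, rose from 0.0718 to 3.31 FPKM (1.98), and Tnfrsf9, which encodes 4-1BB, from 0.175 to 3.22 FPKM (1.80), with no overlap of the groups in all 3. Fas, the most abundant of the list, measured 89.4 and 106 FPKM and did not pass (0.35, adjusted p = 0.318). It passed without saline 1 and saline 3 (0.81, adjusted p = 0.0163) and on the endothelial scale (1.17, adjusted p = 0.00448), and was -0.22 after quantile normalisation.

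Of the 5 genes for the release of TNF from the cell surface, Adam17, the sheddase that cuts TNF and both receptors, rose from 12.2 to 20.5 FPKM (log2 fold change 0.69, SE 0.12, limma adjusted p = 0.00055). Frmd8, which stabilises the partners of that enzyme, rose from 11.6 to 21.8 FPKM (0.84). Rhbdf1 fell from 13.8 to 9.53 FPKM (-0.52, adjusted p = 0.0416), a call that was lost without saline 1 and saline 3 (-0.41, adjusted p = 0.208) and on the endothelial scale (0.23, adjusted p = 0.262). Timp3, the inhibitor of the sheddase, did not pass, at 39.8 and 35.2 FPKM (-0.11, adjusted p = 0.852), and its value was 0.36 (adjusted p = 0.563) without those libraries. Rhbdf2 did not pass either (0.59, adjusted p = 0.0603), but did without saline 1 and saline 3 (0.94, adjusted p = 0.00122) and on the endothelial scale (1.37, adjusted p = 0.00184).

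Of 7 genes whose products set the stability of Tnf mRNA, 2 rose and 2 fell, near the shares of all genes called higher (29.5%) and lower (23.7%). The 3 that did not pass included Elavl1, whose product HuR stabilises such mRNAs (0.23, adjusted p = 0.0877). Zc3h12a, an RNase also called regnase-1, rose from 6.69 to 40.0 FPKM (log2 fold change 2.43, SE 0.24, limma adjusted p = 1.78e-05). Zfp36 measured 149, 38.3, 47.6 and 38.4 FPKM in saline 1 to 4 and 112 to 247 FPKM in LPS libraries (1.34, adjusted p = 0.0101). Saline 1 stood within the LPS range for this gene. Rc3h1 (-0.46) and Zfp36l1 (-0.33) passed as lower, but had positive values when scaled on the endothelial markers (0.28 and 0.47). Without saline 1 and saline 3 both calls were lost, at -0.44 (adjusted p = 0.119) for Rc3h1 and -0.32 (adjusted p = 0.0846) for Zfp36l1.

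Of 8 other TRAF-related genes, 3 rose and 4 fell, where 29.5% of all genes were called higher and 23.7% lower. Tradd, the first adaptor on TNFR1, rose from 7.14 to 17.5 FPKM (log2 fold change 1.18, SE 0.19, limma adjusted p = 0.000387), and Tank, an adaptor of TBK1, from 4.48 to 9.44 FPKM (0.92). Traf7 fell from 39.3 to 20.7 FPKM (-0.89, adjusted p = 8.49e-05). On the endothelial scale Traf7 did not pass (-0.09, adjusted p = 0.765), nor did any other gene of the list as lower, where 634 of all 15023 genes did. Traf3 also rose (0.74), Traf4 (-0.78), Traf5 (-0.70) and Traf3ip2 (-0.51) fell, and Traf6 did not pass (0.01).

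Of 17 genes for the ubiquitin and kinase complex at TNFR1, 6 rose, 1 (Rbck1, -0.28) fell and 10 did not pass. The shares of all genes called were 29.5% higher and 23.7% lower. After quantile normalisation 3 were higher and 2 lower, where 3645 of all 14893 genes were higher and 4174 lower. On the endothelial scale 13 were higher and none lower, where 7819 of all 15023 genes were higher and 634 lower. Without saline 1 and saline 3, 5 were higher and none lower, with Rbck1 at -0.26 (adjusted p = 0.141). The largest rises were those of feedback inhibitors and of a noncanonical kinase. Ikbke rose from 0.916 to 45.5 FPKM (log2 fold change 4.52, SE 0.27, limma adjusted p = 8.63e-07). Tnip1, which encodes ABIN1, rose from 11.2 to 124 FPKM (3.33), and Tnfaip3, which encodes the ubiquitin editor A20, from 8.50 to 57.4 FPKM (2.79). Tbk1 passed at 0.31 (adjusted p = 0.0235) but not after quantile normalisation, where it was -0.09, nor on total reads (0.11, adjusted p = 0.411), nor without saline 1 and saline 3 (0.35, adjusted p = 0.0512). Among the genes that did not pass were those of the classical kinase, Ikbkb, Chuk and Ikbkg, at log2 fold changes of 0.16, 0.25 and 0.13 (each passed as higher on the endothelial scale, at 0.89, 1.02 and 0.83), and these were named after their values had been seen.

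Of 12 genes around the death complex, 8 rose and none fell, where 29.5% of all genes were called higher and 23.7% lower. Zbp1, a sensor that engages RIPK3, rose from 3.61 to 35.0 FPKM (log2 fold change 2.98, SE 0.21, limma adjusted p = 2.06e-06). Mapkapk2, which encodes the kinase MK2, rose from 37.3 to 172 FPKM (2.16), and Tnfaip8 from 1.18 to 6.42 FPKM (1.78). After quantile normalisation 7 of the 12 were higher and 1 was lower, where 3645 of all 14893 genes were higher and 4174 lower. On the endothelial scale all 12 were higher, where 7819 of all 15023 genes were higher and 634 lower.

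Of 12 genes induced by TNF in endothelium, 11 rose and none fell, with a median log2 fold change of 2.56. The shares of all genes called were 29.5% higher and 23.7% lower. Vcam1 did not pass, at 5.38 and 8.84 FPKM (0.58, adjusted p = 0.0701), with overlapping groups. On the endothelial scale all 12 were higher, where 7819 of all 15023 genes were. Ccl2, a monocyte chemoattractant, rose from 0.108 to 52.7 FPKM (5.55, SE 0.20, limma adjusted p = 6.01e-08). Cxcl10 rose from 0.685 to 21.1 FPKM (3.66) and Cxcl1 from 0.397 to 15.6 FPKM (3.62). Nfkbia, which encodes the NF-κB inhibitor IκBα, was the most abundant of the list and rose from 277 to 552 FPKM (1.39, adjusted p = 0.0167). Sele rose from 1.42 to 24.6 FPKM (3.36, limma adjusted p = 1.42e-05) and Icam1 from 58.3 to 295 FPKM (2.35, adjusted p = 8.38e-06), both with no overlap. Myeloid cells also express the chemokines and Nfkbia, and the leukocyte sums given above moved with them. The part of the leukocyte markers in the rises of this list was not tested.

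**Figure D5:**
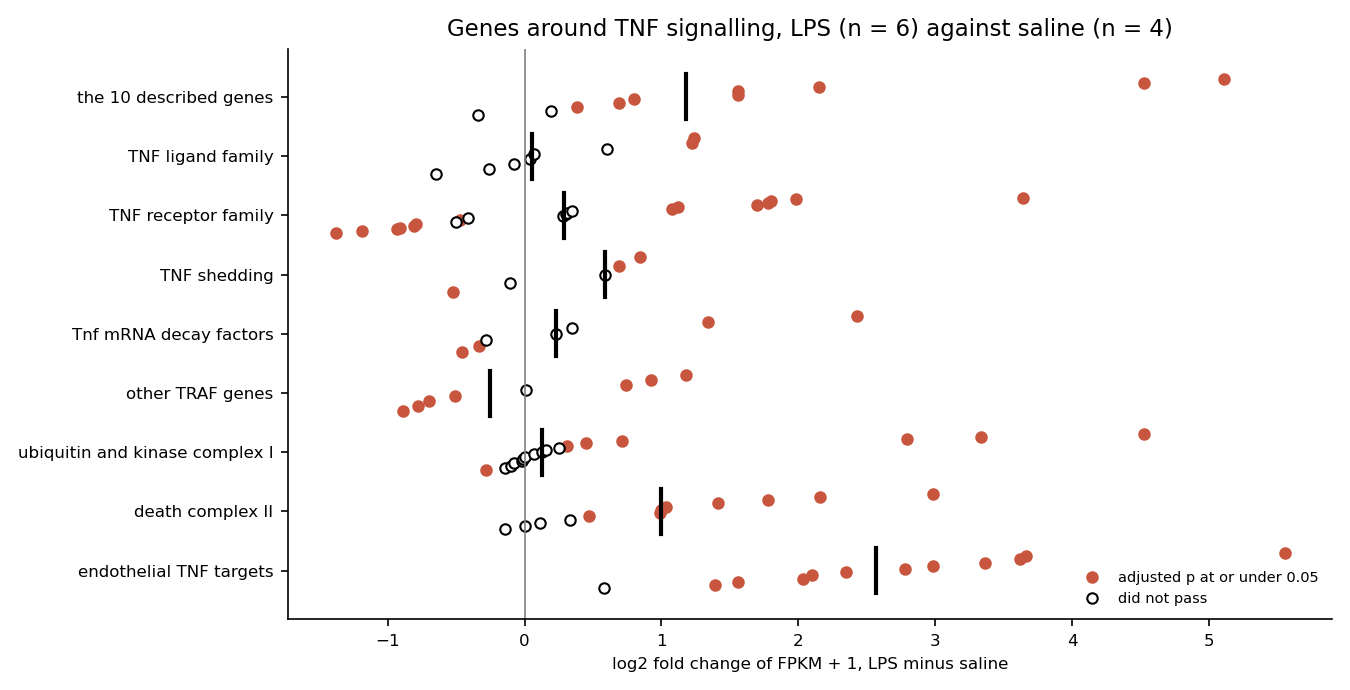
Log2 fold change of FPKM + 1 in LPS (n = 6) against saline (n = 4) for each tested gene of the 10 described genes and of 8 lists around them. Each point is a gene, filled where its limma adjusted p is at or under 0.05, and the upright bar is the median of the list, which is 2.56 for the endothelial TNF targets and 0.06 for the ligands.

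The second experiment asked whether loss of endothelial Fgfr1 changed the response to 2 mg/kg LPS. Fgfr1 itself measured 2.90, 2.91 and 2.60 FPKM in loxP/loxP 1 to 3 and 0.682, 1.41 and 1.15 FPKM in iΔEC/iΔEC 1 to 3, with no overlap. Its log2 fold change was -0.88 (SE 0.16) with an unadjusted p of 0.00103 and a limma adjusted p of 0.962. In WT mice of the first experiment Fgfr1 averaged 3.61 FPKM in saline and 1.81 FPKM in LPS libraries, with LPS 1 at 1.05 FPKM. The level alone therefore does not identify a genotype. No gene of the 14945 tested passed (0% called), and 4.42% had an unadjusted p under 0.05. None of the 10 members passed either, all with an adjusted p of 0.962 or more, and 1 of them, Tnf, had an unadjusted p under 0.05. With 3 libraries against 3, a two-sided exact permutation test cannot go below 0.1.

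Tnf measured 29.6, 39.1 and 46.0 FPKM in loxP/loxP 1 to 3 and 20.0, 23.5 and 33.0 FPKM in iΔEC/iΔEC 1 to 3. The groups overlapped, the highest iΔEC/iΔEC library lying above the lowest loxP/loxP library. The log2 fold change was -0.57 (SE 0.23, 95% confidence interval -1.12 to -0.03, limma adjusted p = 0.962). The labels do not pair the libraries. Pairs were formed by number, because libraries with the same number varied together in these same data. Within these pairs Tnf was lower in the iΔEC/iΔEC library in 3 of 3, with differences of -0.54, -0.71 and -0.47 on the log2(FPKM + 1) scale. Of all genes, 12.9% were lower in every pair. The ratio of Tnf to Ptprc was 1.98 to 2.32 in loxP/loxP and 1.07 to 2.4 in iΔEC/iΔEC libraries, and Ptprc itself had a log2 fold change of -0.26 (SE 0.30). Over the summed monocyte and macrophage markers, Tnf was 0.142 to 0.146 in loxP/loxP and 0.0675 to 0.134 in iΔEC/iΔEC libraries, with no overlap. The iΔEC/iΔEC median of 0.133 lay close to the loxP/loxP values, and this ratio was not tested. All of these Tnf levels were above the 0.738 FPKM of the highest saline library in the first experiment, which was normalised separately and differed in genotype and dose from the second.

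Traf1 was the single member whose groups did not overlap, against 10.1% of all genes in either direction. It measured 6.56, 7.71 and 6.84 FPKM in loxP/loxP 1 to 3 and 3.97, 6.29 and 5.67 FPKM in iΔEC/iΔEC 1 to 3. Its log2 fold change was -0.36 (SE 0.16, limma adjusted p = 0.962; exact permutation p = 0.1, the smallest possible), and it was lower in 3 of 3 pairs. Tnf and Traf1 were thus the 2 members lower in every pair.

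Birc2, Ripk1, Ripk3 and Cflar were higher in the iΔEC/iΔEC library of every pair, 4 of 10 members against 17.8% of all genes. Their log2 fold changes were small, at 0.15 (SE 0.15) for Birc2, 0.20 (SE 0.11) for Ripk1, 0.31 (SE 0.19) for Ripk3 and 0.17 (SE 0.12) for Cflar, and the groups overlapped for each. Ripk3 measured 36.0, 40.0 and 24.5 FPKM in loxP/loxP 1 to 3 and 42.8, 41.1 and 38.6 FPKM in iΔEC/iΔEC 1 to 3. The endothelial marker sum leaned the same way, at 2509 to 3121 FPKM in loxP/loxP and 2851 to 3971 FPKM in iΔEC/iΔEC libraries. When scaled on the endothelial markers, Birc2, Ripk1 and Cflar turned to -0.13, -0.06 and -0.11, and Ripk3 was 0.02. Without loxP/loxP 3, Ripk3 was 0.10.

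The receptors showed no shift that the spread would let through. Tnfrsf1a measured 173, 151 and 121 FPKM in loxP/loxP 1 to 3 and 188, 147 and 172 FPKM in iΔEC/iΔEC 1 to 3, with a log2 fold change of 0.20 and a 95% confidence interval of -0.24 to 0.63. Tnfrsf1b measured 61.5, 71.5 and 127 FPKM in loxP/loxP 1 to 3 and 41.4, 91.9 and 86.0 FPKM in iΔEC/iΔEC 1 to 3, with an interval of -1.18 to 0.67. Its ratio to the summed monocyte and macrophage markers was 0.259 to 0.403 and 0.264 to 0.347. Over both experiments the 16 libraries thus held between 0.243 and 0.403 FPKM of Tnfrsf1b per FPKM of these markers. Birc3 was even in loxP/loxP libraries, at 32.6, 33.1 and 32.3 FPKM, and measured 29.3, 45.2 and 29.0 FPKM in iΔEC/iΔEC 1 to 3. Traf2 had a log2 fold change of 0.19 (SE 0.13), with overlapping groups.

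Of the 90 genes of the 8 lists tested here, none passed, 7 had an unadjusted p under 0.05, and the groups were apart for 9 genes higher and 2 lower in iΔEC/iΔEC libraries. Over all genes 4.42% had such a p and 10.1% had groups apart in either direction, so the share of the lists that was apart lay near the background. The genes with the smallest unadjusted p of their lists were Ltb, Eda2r, Rhbdf2, Zfp36, Traf6, Tbk1, Ripk2 and Icam1. Icam1, the leukocyte adhesion molecule of activated endothelium, measured 130 to 266 FPKM in loxP/loxP and 334 to 382 FPKM in iΔEC/iΔEC mice (log2 fold change 0.90, SE 0.27, unadjusted p = 0.0141, limma adjusted p = 0.962), with no overlap. Ltb, a lymphotoxin subunit made by lymphocytes, averaged 40.0 and 24.8 FPKM (-0.69, SE 0.17, unadjusted p = 0.00625, limma adjusted p = 0.962), also with no overlap, and the lymphocyte marker sum was 64.6 to 74.3 FPKM in loxP/loxP and 37.5 to 74.0 FPKM in iΔEC/iΔEC libraries. The part of lymphocyte markers in the value of Ltb was not tested. Of the genes for the release of TNF, Rhbdf2, which escorts the sheddase to the surface, averaged 23.2 and 28.7 FPKM (0.30, SE 0.09, limma adjusted p = 0.962), with no overlap.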

How the data were processed

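Bulk RNA-seq of bead-isolated pulmonary ECs was analysed in 16 libraries, as labelled. The authors sequenced on an Illumina NovaSeq, aligned reads to GRCm38/mm10 with HISAT2 (2.0.5), counted them with featureCounts (1.5.0-p3) and deposited FPKM with gene lengths, in a table per experiment. Strandedness and annotation release are not given in the sources used here. FPKM multiplied by gene length and divided by the step that 1 read makes gave whole read numbers (within 0.05 reads) for 100% of the values, from which depth was taken. The floor of 3 reads covers counting error only, and the 95% confidence intervals from limma reflect the spread between libraries.

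FPKM was scaled by median-of-ratios factors, which moved no library by more than 0.182%, since the deposited values already carried such a scaling and did not follow total reads. Genes averaging under 0.5 FPKM were dropped, and log2(FPKM + 1) of the rest was compared within each experiment with limma 3.58.1 (R 4.3.3; lmFit, eBayes with trend), with Benjamini-Hochberg adjustment over all genes tested and calls at an adjusted p at or under 0.05. Exact permutation tests were two-sided. The limma step was also run on simulated reads with the same dispersion for every gene. These are simpler than the real libraries, so that run does not vouch for the calls made here.

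The 10 genes and all lists were chosen with earlier results of these data known, and none is independent evidence of its direction. Named from each pathway list were the 3 genes with the largest change among those that passed with groups apart, the most abundant gene and, in the second experiment, the gene with the smallest p. Outside this rule, Tnfsf14, Rhbdf1, Rbck1, Traf3, Traf4, Traf5, Traf3ip2, Elavl1, Ikbkb, Chuk, Ikbkg, Vcam1, Sele and, in the first experiment, Icam1 were named after their values had been seen. The most abundant gene of a marker list, Ptprc and Pecam1 were also named, and for Tnf and its receptors the 3 genes of highest correlation. The lists not otherwise described held lymphocyte (led by Cd79a), epithelial (Sftpc), fibroblast (Col3a1), mural (Acta2) and erythroid (Hba-a1) markers, of which 3 of 5, 3 of 9, 4 of 6 and 2 of 7 tested genes were lower in LPS and 3 of 3 erythroid genes were higher. Over all genes, 23.7% were called lower and 29.5% higher. In the second experiment 0 genes of any marker list passed.

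In the second experiment libraries of the same number deviated together (correlations of 0.248, 0.178 and 0.187 over genes, and -0.0410 or less for other pairs), so the numbers were taken as pairs. In the first they did not (0.0972, -0.162, -0.209 and -0.117), although saline 2 and LPS 3, of unlike number, reached 0.289. The labels give no pairing. Deviations were taken from the mean of each group, so positive values for same numbers bring negative ones for the other pairs with them. Alternatives were other scalings, pseudocounts, filters and variance models, limma-voom on recovered reads, a replicate block and leaving out libraries. Leaving out saline 1 and saline 3 together was chosen after seeing the data. Sequences came from RefSeq (GRCm38.p6) and GENCODE M21, and protein sequences were not analysed here. Versions were Python 3.11.15, pandas 2.3.3, numpy 2.4.6 and matplotlib 3.10.9.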

Additional observations from a re-analysis of the deposited data

Results flagged for a closer look

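Among 38 group values of the members and marker sums examined in the first experiment, 3 held a library far from the others of its group, where chance gives about 1.9. For Traf2 it was saline 1, at 3.32 FPKM, while its 3 companions lay at 5.57 to 5.79 FPKM. For Birc2 it was saline 1 again, at 22.8 FPKM beside 13.7 to 14.4 FPKM. For the lymphocyte marker sum it was saline 3, at 24.0 FPKM beside 104 to 134 FPKM.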

How the results depend on the processing

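Tnf, Tnfrsf1b, Traf1, Traf2, Birc3, Ripk1 and Ripk3 stayed higher in LPS and past the threshold under all 22 alternatives run for each. With a log2 fold change limit of 1 the count of members higher fell from 8 to 5. Birc2 passed as lower, making 1 member instead of 0, under quantile normalisation (-0.59, adjusted p = 0.00454) and scaling on total reads (-0.53), and it passed the exact permutation test (p = 0.019), but turned to 0.43 on the endothelial scale. Tnfrsf1a lost its call under 11 of 22 alternatives, among them quantile normalisation, where it turned to -0.29. Cflar turned to -0.16 under quantile normalisation and -0.01 under total reads, and passed on the endothelial scale (0.97, adjusted p = 0.0105). Over all genes the median log2 value went from 0.01 to -0.06 (quantile), -0.15 (total reads) and 0.64 (endothelial) under these scalings, with 3645, 3464 and 7819 genes higher and 4174, 4678 and 634 lower. limma-voom on the recovered reads called 4386 genes higher and 3629 lower.

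In the second experiment 0 members and 0 genes passed under every alternative. On the endothelial scale (median of all genes -0.22) the values of Tnfrsf1a (-0.09), Traf2 (-0.07), Birc2 (-0.13), Birc3 (-0.23), Ripk1 (-0.06) and Cflar (-0.11) turned negative, and under total reads that of Birc3 (-0.02). Leaving out a library in turn gave -0.46 to 0.11 for Tnfrsf1b, 0.00 to 0.22 for Birc2 and -0.16 to 0.15 for Birc3. The cause of these changes was not tested. With the replicate block Tnf in the second experiment was -0.57 (adjusted p = 0.527), Tnfrsf1a in the first lost its call (0.39, adjusted p = 0.202), and the pairing changed no other call of a member. Among the members, depth limits most the saline level of Tnf, which rests on 11 to 17 reads a library.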
